A study of Rattus norvegicus with 4 samples.

Results

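The troponins and tropomyosins are the regulatory proteins of the actin thin filament. They were followed here through 8 genes, 4 troponins (Tnnc1, Tnni1, Tnni3 and Tnnt2) and 4 tropomyosins (Tpm1, Tpm2, Tpm3 and Tpm4), chosen by name from the 14137 gene identifiers of the deposited table, each of them on a row of its own. All 8 passed the filter on low values. The cells were neonatal rat ventricular myocytes, grown as a primary culture in which fibroblasts and other heart cells can remain. Lentivirus brought in a short hairpin RNA, either a control or one directed at Crat, which encodes the mitochondrial carnitine acetyltransferase, and total RNA was taken after 5 days. There were 2 libraries per group; the labels call the groups WT and KO, while the design text describes hairpins, so the names control and Crat hairpin are used. The sources used here give neither the number of hairpin sequences nor whether each library is a culture of its own.

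Tropomyosin is a coiled coil that lies along actin and, in the resting sarcomere, covers the sites that myosin binds. Troponin sits on it as a complex of 3 subunits: troponin C binds calcium, troponin I holds the filament in the off state, and troponin T ties the complex to tropomyosin. The heart carries Tnni1, the slow skeletal form of troponin I, before birth and exchanges it for the cardiac form Tnni3 around and after birth. Tropomyosin genes also give shorter products that bind actin cables outside the sarcomere, and a value per gene does not separate the products.

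Shown is the sequence before the annotated start of the troponin and the tropomyosin gene with the most reads. The cardiac troponin I gene and the tropomyosin gene that rose are shown as well. The letters are from RefSeq, build GRCr8, matched by symbol. There was an entry for 7 of the 8 genes, all but Tnnc1, with 10 windows in all. Each window holds the 250 bases before the start on the strand of the gene: chr13:49818873-49819122 (plus strand) for the first of the 2 Tnnt2 windows, chr8:76543416-76543665 (minus strand) for Tpm1, chr1:78342321-78342570 (plus strand) for Tnni3 and chr2:177814633-177814882 (plus strand) for the first of the 3 Tpm3 windows. Capitals mark a GATA motif or an MCAT motif on either strand. The GATA motif was searched as AGATAA, which has 3 further spellings: its last letter may be G, as in AGATAG, and either of these may begin with T, as in TGATAG. The MCAT motif was searched as CATTCC.
Tnnt2: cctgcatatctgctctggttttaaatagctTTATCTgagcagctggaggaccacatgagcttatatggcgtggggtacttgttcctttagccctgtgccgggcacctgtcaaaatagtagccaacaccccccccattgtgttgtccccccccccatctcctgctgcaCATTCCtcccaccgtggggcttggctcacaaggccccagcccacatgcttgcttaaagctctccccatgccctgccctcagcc
Tpm1: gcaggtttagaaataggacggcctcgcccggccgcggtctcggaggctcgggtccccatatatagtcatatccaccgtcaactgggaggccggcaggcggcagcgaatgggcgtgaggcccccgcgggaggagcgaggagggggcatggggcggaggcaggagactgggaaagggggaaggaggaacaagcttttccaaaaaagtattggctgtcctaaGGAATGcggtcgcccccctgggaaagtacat
Tnni3: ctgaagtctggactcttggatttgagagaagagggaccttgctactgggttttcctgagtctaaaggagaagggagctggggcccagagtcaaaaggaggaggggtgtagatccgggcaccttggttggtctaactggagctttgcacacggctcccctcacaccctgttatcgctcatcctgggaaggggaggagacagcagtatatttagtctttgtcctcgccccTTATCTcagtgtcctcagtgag
Tpm3: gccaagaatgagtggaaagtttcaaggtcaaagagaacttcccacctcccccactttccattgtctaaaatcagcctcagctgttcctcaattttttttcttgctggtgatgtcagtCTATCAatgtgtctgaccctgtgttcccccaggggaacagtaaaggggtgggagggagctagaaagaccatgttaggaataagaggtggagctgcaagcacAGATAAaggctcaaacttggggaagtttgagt
Tnnt2 held a GATA motif 220 to 215 bases before the start and an MCAT motif 83 to 78 bases before it. The Tpm1 window held an MCAT motif 31 to 26 bases before the start, and the Tnni3 window a GATA motif 22 to 17 bases before it. GATA motifs stood 133 to 128 and 32 to 27 bases before the start in the Tpm3 window. The windows not shown, 6 in all, held neither motif. Of 33469 windows of the same length in the RefSeq table, 27.0% hold a GATA motif and 12.1% an MCAT motif, so either is common. No member window held a CArG box or a MEF2 box, searched on both strands by their usual consensus; 1.50% and 2.96% of all windows do. A match is a description of letters and not of binding, and the part of these motifs in the changes was not tested.

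Depth set the precision of every value. Control replicate 1 held 23680064 reads and control replicate 2 held 1321735, whereas Crat hairpin replicate 1 held 321516 and Crat hairpin replicate 2 held 1622998. Values are RPM, a gene's reads as a part of all reads of the library, scaled by the same constant in every library; 1 read was worth 0.0422, 0.757, 3.11 and 0.616 RPM in these libraries. Nothing was divided by gene length, so the levels of different genes are not compared. Read counts of the 8 genes ran from 24, for Tnni1 in Crat hairpin replicate 1, to 99214, for Tnnt2 in control replicate 1. Changes were tested with limma on log2(RPM + 1) over 12949 genes, with Benjamini-Hochberg adjusted p below 0.05 as the threshold. Over all genes tested 6.36% fell and 12.6% rose; among the 2151 genes whose mean reached 100 RPM, a range that holds every member, 20.9% fell and 28.9% rose. The median log2 fold change of all genes was 0.15. With TMM scaling, which centres most genes near no change, that median was -0.05 and 1281 genes fell against 1003 that rose, where 823 fell and 1631 rose without it. Groups did not overlap for many genes: both hairpin values were lower in 21.7% of all genes tested and higher in 39.1%. Crat, the target of the hairpin, was at 148 and 156 RPM in the controls and at 24.9 and 19.7 RPM with the hairpin, on 8 and 32 reads. Its log2 fold change was -2.72 ± 0.19 (SE; n = 2 per group; limma adjusted p = 7.3e-06).

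All 4 troponin genes fell. Tnnt2, cardiac troponin T, had control values of 4189.8 and 4064 RPM, and values of 1810.2 and 1762 RPM with the Crat hairpin. Every Crat hairpin value lay below every control value, by far more than the distance between libraries of a group. Its log2 fold change was -1.21 ± 0.04 (SE; limma adjusted p = 5.6e-08), which left 43.3% of the control mean. Quantile normalization, which forces the same distribution on all libraries, gave Tnnt2 a log2 fold change of -0.63. With a prior variance that does not follow expression, limma gave Tnnt2 an adjusted p of 0.0554.

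Tnnc1, the calcium-binding subunit shared by heart and slow skeletal muscle, had the largest fall of the 8 genes. It was at 883 and 888 RPM in the controls and at 184 and 199 RPM with the Crat hairpin, where it was counted with 59 and 323 reads. The log2 fold change of Tnnc1 was -2.21 ± 0.08 (SE; limma adjusted p = 8.1e-08), and the group mean came to 21.6% of the control. Only 0.672% of all genes tested had a lower log2 fold change.

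Tnni1, the slow skeletal and fetal form of troponin I, was at 197 and 211 RPM in the controls and at 74.6 and 75.8 RPM with the Crat hairpin. The groups did not overlap, although the values with the hairpin rest on 24 and 123 reads. Tnni1 fell by 1.43 ± 0.13 on the log2 scale (SE; limma adjusted p = 4.2e-05), and with reads thinned to the shallowest library it had an adjusted p of 0.0746. Tnni3, the cardiac form, was at 384 and 366 RPM in the controls and at 218 and 245 RPM with the hairpin, again without overlap. Its fall was the smallest of the troponins, 0.70 ± 0.10 on the log2 scale (SE; limma adjusted p = 7.6e-04). The limma adjusted p of Tnni3 was 0.0776 without control replicate 1, 0.121 without the variance trend and 0.0561 with thinned reads.

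**Figure D1:**
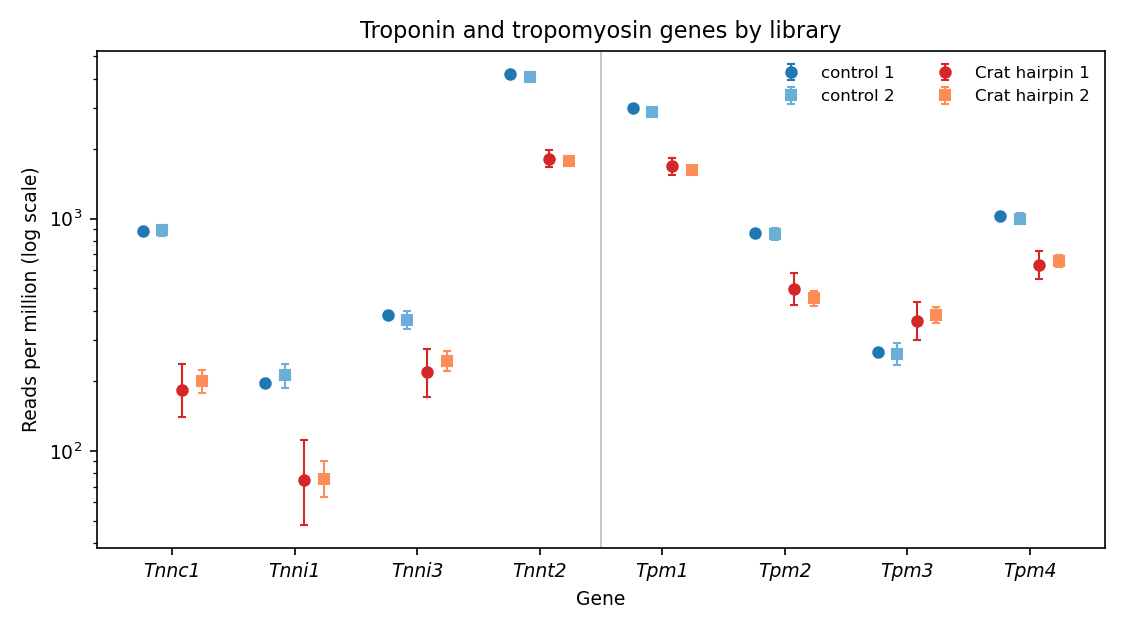
RPM of each gene (log axis) in the 4 libraries, with points for libraries and bars for exact 95% binomial intervals, which cover counting error only. In 7 genes both Crat hairpin libraries lie below both controls, and in Tpm3 both lie above them. Of all genes tested, 21.7% lie below in this way and 39.1% above.

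The reads of the troponin genes were also compared with each other. Such a ratio within a library does not depend on scaling between libraries, and its change does not depend on gene length while the transcripts stay the same. With 2 libraries against 2 an exact two-sided permutation test cannot go below p = 0.333, and 12 ratios were computed, so no ratio could pass a threshold; adjusted over the 12, p was 0.364 wherever the groups did not overlap. Intervals given with ratios and shares are exact 95% binomial intervals and cover counting error only.

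The ratio of Tnni1 to Tnni3 reads was lower with the Crat hairpin. There were 51.2 Tnni1 reads per 100 Tnni3 reads (interval 49.4 to 53.0) in control replicate 1 and 57.6 (49.6 to 66.9) in control replicate 2. With the hairpin there were 34.3 (20.6 to 55.2) in replicate 1 and 31.0 (25.1 to 38.0) in replicate 2. The groups did not overlap, and the difference in log2 ratio was -0.74 (exact permutation p = 0.333), against within-group SDs of 0.12 and 0.10 (n = 2 each). The interval of the shallow Crat hairpin replicate 1 reached into the range of the controls, while that of replicate 2 did not. Thus the fetal form made up less of the troponin I reads, with a mean ratio of 0.326 ± 0.0234 against 0.544 ± 0.0457 (SD, n = 2 each).

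Troponin C fell away from troponin T. Control libraries had 21.1 and 21.9 Tnnc1 reads per 100 Tnnt2 reads, and Crat hairpin libraries 10.1 and 11.3, a 0.498-fold change (exact permutation p = 0.333). The widest interval of the hairpin libraries, 7.62 to 13.3, lay below those of both controls. Tnni3 went the other way relative to troponin T, from 9.17 and 9.01 reads per 100 Tnnt2 reads to 12.0 and 13.9. The groups did not overlap, but the interval of Crat hairpin replicate 1 (9.25 to 15.4) overlapped those of control replicate 1 (8.97 to 9.37) and control replicate 2 (8.19 to 9.89), while that of Crat hairpin replicate 2 (12.5 to 15.4) overlapped neither. Tnni1 per 100 Tnnt2 reads was 4.69 and 5.19 in the controls and 4.12 and 4.30 with the hairpin. These groups did not overlap either, but the intervals of both hairpin libraries (2.62 to 6.20 and 3.56 to 5.15) overlapped those of both controls. Both ratios had the same exact permutation p of 0.333, the smallest possible here.

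**Figure D2:**
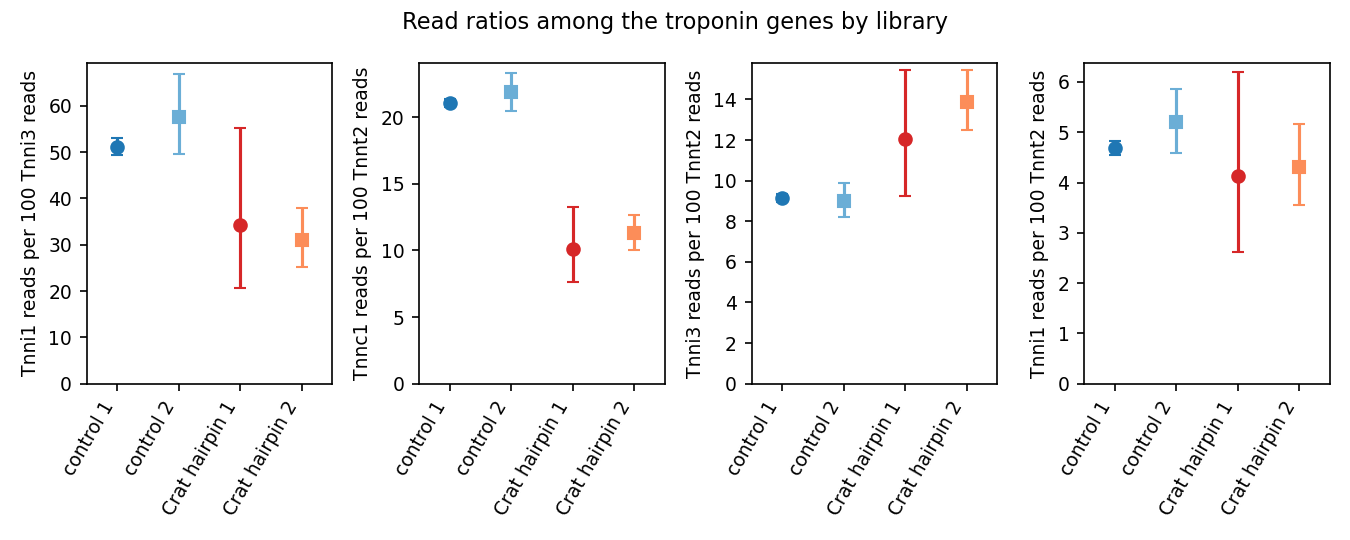
Reads of 1 troponin gene per 100 reads of another in each library, on linear axes from 0, with exact 95% binomial intervals as bars. Tnni1 per 100 Tnni3 reads runs from 51.2 to 57.6 in the controls and from 31.0 to 34.3 with the Crat hairpin, and Tnnc1 per 100 Tnnt2 reads from 21.1 to 21.9 and from 10.1 to 11.3.

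Of the 4 tropomyosin genes 3 fell and Tpm3 rose. Tpm1, alpha-tropomyosin, the main sarcomeric form of the heart, was at 2978 and 2873 RPM in the controls and at 1683 and 1618 RPM with the Crat hairpin. The groups were far apart, and Tpm1 fell by 0.83 ± 0.05 on the log2 scale (SE; limma adjusted p = 1.4e-06). Tpm2, beta-tropomyosin, which skeletal and smooth muscle carry, was at 869 and 856 RPM in the controls and at 498 and 453 RPM with the hairpin. Its log2 fold change of -0.86 ± 0.07 (SE; limma adjusted p = 2.8e-05) lay close to that of Tpm1. Neither call held without the variance trend, where limma gave adjusted p of 0.0914 for Tpm1 and 0.0909 for Tpm2, or with thinned reads, where it gave 0.0561 for both. Tpm2 reads per 100 Tpm1 reads were 29.2 and 29.8 in the controls and 29.6 and 28.0 with the hairpin, so the groups overlapped in that ratio (exact permutation p = 0.667).

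Tpm4, known mainly for cytoskeletal products, was at 1025 and 998 RPM in the controls and at 631 and 658 RPM with the Crat hairpin. Tpm4 fell by 0.65 ± 0.06 on the log2 scale (SE; limma adjusted p = 7.0e-05), the smallest fall among the members that fell. Its limma adjusted p was 0.121 without the variance trend and 0.0595 with thinned reads. Tpm3, whose products serve slow skeletal fibres and the cytoskeleton, was at 267 and 261 RPM in the controls and at 364 and 385 RPM with the hairpin, on 117 and 625 reads. It was the only member with both hairpin libraries above both controls, as were 39.1% of all genes tested. Tpm3 rose by 0.50 ± 0.09 on the log2 scale (SE; limma adjusted p = 0.0031), or 0.35 above the median of all genes. Of all genes tested, 27.6% had a higher log2 fold change. The call on Tpm3 was lost under 5 of the 19 alternatives: limma gave an adjusted p of 0.163 without the variance trend and 0.130 with thinned reads, TMM scaling gave a log2 fold change of 0.30 (adjusted p = 0.0575), and without control replicate 1 the adjusted p was 0.103. DESeq2 gave Tpm3 an adjusted p of 0.108, and the authors' deposited table gives it an adjusted p of 0.231. In the same deposited table the other 7 members have adjusted p of at most 2.2e-07, and a lower mean with the Crat hairpin; of all its identifiers, 5.60% pass 0.05 with a lower mean and 4.91% with a higher one.

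Within the tropomyosins, Tpm3 took a larger part of the reads in both hairpin libraries. As a share of the summed tropomyosin reads it was 5.20% (interval 5.08 to 5.33) and 5.23% (4.71 to 5.80) in the controls. With the Crat hairpin it was 11.5% (9.57 to 13.6) and 12.4% (11.5 to 13.3), a difference of 6.70 percentage points (exact permutation p = 0.333). Neither hairpin interval reached the controls. Set against Tpm4, there were 26.1 and 26.2 Tpm3 reads per 100 Tpm4 reads in the controls and 57.6 and 58.5 with the hairpin, a 2.22-fold change. Against Tpm1 the ratio changed 2.51-fold. The mean RPM with the hairpin was 1.42 times the control mean for Tpm3, 0.637 times for Tpm4 and 0.564 times for Tpm1. The ratios and the share of Tpm3 thus rose partly because the other genes fell.

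In percentage points the share lost lay mostly with Tpm1, the largest part, although the groups overlapped in the ratio of Tpm2 to Tpm1. Tpm1 made up 57.9% and 57.6% of tropomyosin reads in the controls. With the Crat hairpin it made up 53.0% and 52.0%, a difference of -5.29 percentage points (exact permutation p = 0.333). Tpm2 held 16.9% and 17.2% in the controls and 15.7% and 14.5% with the hairpin. The Tpm2 interval of Crat hairpin replicate 1, 13.5 to 18.0, took in both control values. Tpm4 held 19.9% and 20.0% in the controls and 19.9% and 21.1% with the hairpin, so its groups overlapped (exact permutation p = 1). These are shares of reads, not of molecules, because no lengths were divided out. RefSeq lists 3 pseudogenes named for Tpm3, 1 for Tpm1 and 1 for Tpm2, and the sources do not state how the authors' counting assigned reads shared with such copies.

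**Figure D3:**
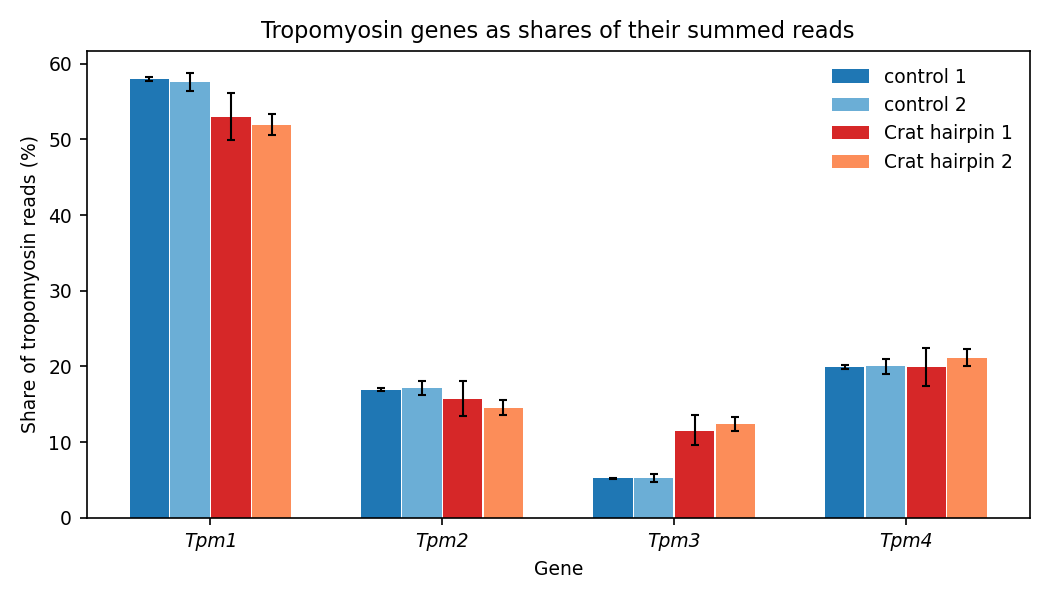
Percent of the summed Tpm1 to Tpm4 reads in each library, as bars from 0 with exact 95% binomial intervals. The Tpm3 share is 5.20% and 5.23% in the controls and 11.5% and 12.4% with the Crat hairpin, and the Tpm4 bars overlap between groups.

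Summed over genes, troponins lost more than tropomyosins. The 4 troponins made up 0.565% and 0.553% of all reads in the controls and 0.229% and 0.228% with the Crat hairpin, which is 40.8% of the control mean. The 4 tropomyosins made up 0.514% and 0.499% in the controls and 0.318% and 0.311% with the hairpin, or 62.1%. In each control library there were 123 tropomyosin reads per 100 Tnnt2 reads, and with the hairpin 175 and 177. The median log2 fold change was -1.32 for the 4 troponins and -0.74 for the 4 tropomyosins, against 0.15 for all genes tested. Over the 8 genes 7 fell and 1 rose. In bulk RNA, fewer cells of a type and less RNA per cell cannot be told apart.

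**Figure D4:**
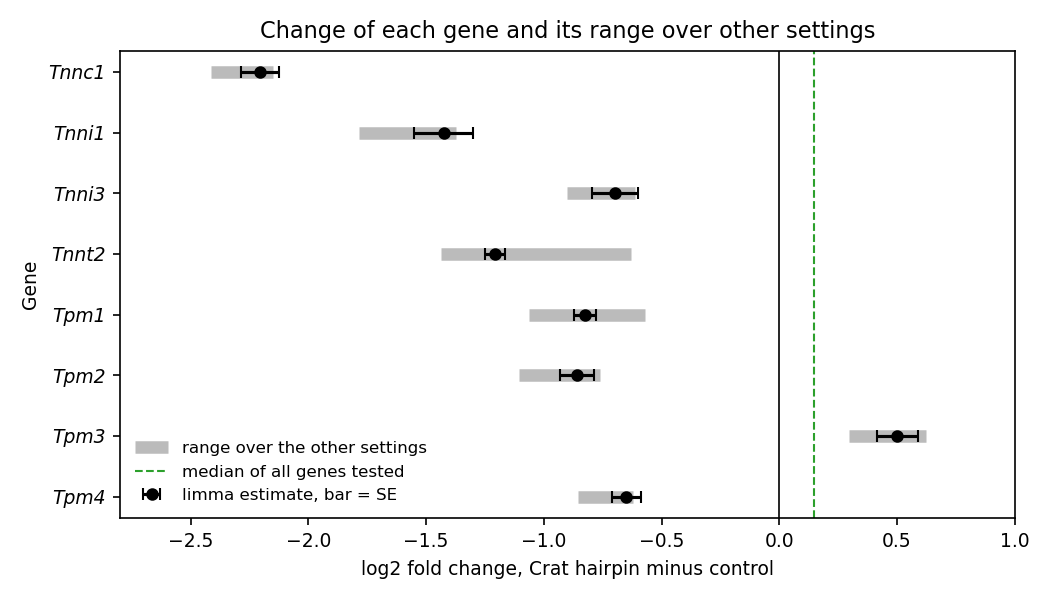
Log2 fold change of each gene, Crat hairpin minus control, with the SE of the limma fit as black bars and the lowest to highest value over 19 other settings in grey. Estimates run from -2.21 for Tnnc1 to 0.50 for Tpm3, no grey bar crosses 0, and the dashed line marks the median of all genes, 0.15.

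Other genes of the thin filament fell as well. Of 17 tested partners of the filament, 12 fell and 2 rose (13 and 1 with TMM scaling), with a median log2 fold change of -0.64. The cardiac actin Actc1, the track on which these proteins lie, had a log2 fold change of -2.09, and the skeletal actin Acta1 one of -4.39. Xirp2, an actin-binding protein of the cell ends, came to -1.57 and the actin nucleator Lmod1 to -1.81, the latter on 2 and 21 reads with the hairpin. All 4 passed the test, as did 2 caps of the slow-growing filament end that moved apart. Tmod1 had a log2 fold change of -1.24 (limma adjusted p = 2.8e-04), and Tmod3 rose by 0.95 (limma adjusted p = 0.0073). Summed over 18 genes, the list stood at 37.3% of the control mean. Actc1 carried much of that sum. Its mean was 7724 RPM in the controls, where the list summed to 12457 and 12416 RPM. With the hairpin its mean was 1820 RPM, and the list summed to 4740 and 4542 RPM. Of the skeletal troponin genes only Tnnt1 could be read, with 10 and 0 reads in the controls and 0 and 1 with the hairpin; Tnnc2, Tnni2 and Tnnt3 were not analysed here.

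In the thick filament 7 of 13 genes fell and 2 rose (8 and 1 with TMM scaling), with a median of -0.52. The log2 fold change was -1.96 for the myosin heavy chain Myh7 and -1.60 for the M-band protein Myom1. Mybphl rose by 2.50 on 12 and 32 reads with the hairpin. The other gene that rose, Mybpc3, went from a mean of 807 to 1072 RPM, a log2 fold change of 0.41 (limma adjusted p = 9.2e-04). Myl1 had a log2 fold change of -4.39 and no read in Crat hairpin replicate 1. Actin cables outside the sarcomere, where the short tropomyosins lie, fell almost throughout: of 16 tested genes 15 fell, and Lima1 had a value of 0.29 (adjusted p = 0.133). The log2 fold change was -1.22 for the myosin light chain Myl9, -1.07 for non-muscle myosin Myh9, -0.96 for vinculin, Vcl, and -0.90 for the actin crosslinker Actn1. That list had a median log2 fold change of -0.78, close to those of Tpm1 and Tpm2, and Tpm3 rose while it fell.

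Genes of enzymes known to act on troponin I or T, with their subunits and an anchor, moved in no common direction. Of 16 tested, 4 fell and 2 rose (5 and 1 with TMM scaling). Over all genes tested 6.36% fell and 12.6% rose, and 20.9% and 28.9% among genes whose mean reached 100 RPM. The counts of this and the other gene lists were not tested against these shares. The log2 fold change was -1.49 for the kinase anchor Akap5, on 6 and 50 reads with the hairpin. It was -1.41 for the kinase Prkd1, on 3 and 13 reads. The phosphatase subunit Ppp1cb came to -1.09 and the kinase Prkaca to -0.98, while the kinases Pak1 and Camk2d rose by 1.21 and 0.63. Among 13 transcription factors of heart muscle 3 fell and 1 rose (4 fell and none rose with TMM scaling). Nkx2-5 had a log2 fold change of -1.51 with 2 reads in Crat hairpin replicate 1, Srf one of -0.69 and Mef2a one of -0.43, and Tead1, a factor of MCAT motifs, rose by 0.59. Of 10 splicing factors of muscle 3 fell and 1 rose (4 fell and none rose with TMM scaling). The log2 fold change was -1.46 for Rbm24, which acts on sarcomere exons, -0.59 for Celf2 and -0.55 for Rbpms, and Mbnl2 rose by 0.46.

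Markers of the cells in the culture moved beside these results. The 12 heart muscle markers with a value, which include no actin, myosin, troponin or tropomyosin, summed to 9907 and 9938 RPM in the controls and to 7639 and 7918 with the Crat hairpin, 78.4% of the control mean, against 40.8% for the troponins. Of them 6 fell and 1 rose: the creatine kinase Ckm had a log2 fold change of -2.54, the natriuretic peptide Nppa one of -0.71 and the calcium buffer Casq2 one of -1.10, and the calcium pump Atp2a2 rose by 0.73. Ryr2, the calcium release channel, was at 444 and 483 RPM in the controls and at 414 and 505 with the hairpin, so its groups overlapped. Nppa carried much of the sum, with 5220 and 5288 RPM in the controls and 3120 and 3323 RPM with the hairpin. Atp2a2 was at 1590 and 1545 RPM in the controls and at 2662 and 2523 RPM with the hairpin. Not every marker was well read: Mb had 52, 1, 0 and 9 reads in the 4 libraries, Kcnj3 had 2 and Hrc 4 in Crat hairpin replicate 1, and Pln was not analysed here.

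Smooth muscle and pericyte markers, cells in which Tpm1, Tpm2 and Tpm4 are also known, summed to between 5278 and 5394 RPM in the controls. With the hairpin they summed to between 1941 and 2047 RPM, with 6 of 10 lower and 2 higher (6 and 1 with TMM scaling). Acta2 and Tagln, which fell, carried much of that sum, with control means of 2797 and 1434 RPM. The 2 that rose were Pdgfrb, by 0.37 on the log2 scale, and Abcc9, by 1.22. Fibroblast markers summed to between 23219 and 24185 RPM in the controls and between 17203 and 17566 RPM with the hairpin. Of 11 tested, 5 were lower and 4 higher (1 and 5 under quantile normalization). Col1a1, Col1a2, Col3a1 and Postn, which fell, carried much of that sum, with control means of 7823, 4220, 8012 and 2800.5 RPM. The 4 that rose were Pdgfra by 2.10, Fbln1 by 1.78, Dcn by 1.12 and Ddr2 by 0.33 on the log2 scale. Endothelial markers summed to between 57.0 and 67.3 RPM in the controls and between 65.9 and 71.5 with the hairpin, with 1 of 6 lower and 1 higher. Leukocyte markers summed to between 44.4 and 44.6 RPM and between 49.8 and 49.9. None of the 8 leukocyte markers passed the limma test and none had an unadjusted p below 0.05; in edgeR, which tested 4 of them, 1 had an unadjusted p below 0.05 and none passed, and in DESeq2 none of 9 did either. Skeletal muscle markers summed to between 356 and 375 RPM and between 40.0 and 59.1, 3 of 4 lower and 1 higher. Acta1 and Ckm carried most of that sum, with control means of 236 and 122 RPM. Acta1 is also counted above as a thin filament partner and Ckm as a heart muscle marker, so this list is not separate from those. Myh3 had no read in either hairpin library, and Myod1, Myog, Tnnt3 and Tnni2 were not analysed here. No marker with a value stood at 0 in all 4 libraries. The part of these cells in the changes of the troponin and tropomyosin genes was not tested.

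**Figure D5:**
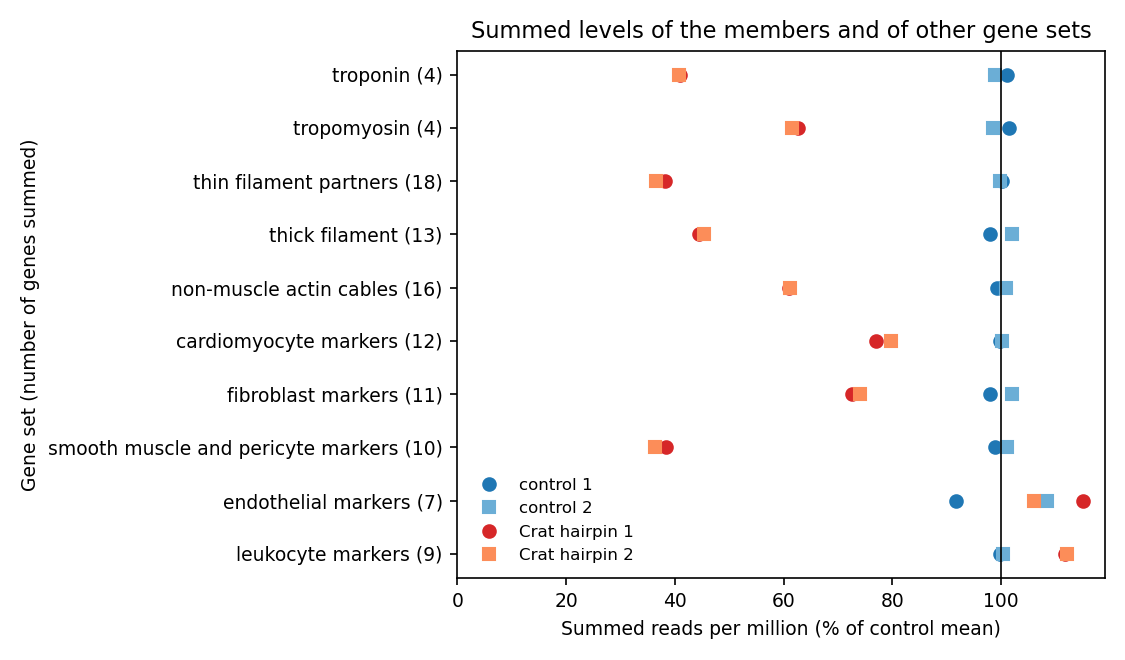
Summed RPM of gene sets in each library, as percent of the control mean (axis from 0, number of genes in brackets). With the Crat hairpin troponins stand near 40.8%, tropomyosins near 62.1%, heart muscle markers near 78.4% and smooth muscle and pericyte markers near 37.4%.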

How the data were processed

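Expression was measured by RNA sequencing of total RNA in 4 libraries, 2 per group. The submitters' processing notes name kallisto, DESeq2 and the rat build mRatBN7.2, with no role or version. The authors deposited 1 table with a signal per library, headed TPM per the file headers; the values are whole multiples of 1 step per library (100% within 0.02 of a read), with no length term, and are read here as RPM. The deposited p-value and adjusted p-value columns are the authors' own. The 14318 rows hold 14137 identifiers, each used once; 140 stand on several rows with the same values.

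The test used limma 3.58.1 (R 4.3.3) on log2(RPM + 1) of genes whose mean reached 1 RPM, with a trended prior variance and no block; the planned test assumed normalized values and was kept. The fit was tested on simulated reads. edgeR 4.0.16 and DESeq2 1.42.0 were run on the recovered reads as alternatives, and edgeR called 3767 genes. Separate cultures are not stated for the libraries, so p-values may measure technical spread. Replicates differed by more than counting error (chi-square per degree of freedom 1.47 in controls and 1.29 with the Crat hairpin), so each library counts once.

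Members and gene lists were chosen with earlier results of these data known. Named are the members, Crat, and up to 4 genes per list past the threshold by size of change. Where fewer than 2 passed, the 2 highest by mean at most are named. Lima1, Ryr2, Mb, Kcnj3, Hrc, Mybpc3, markers that carried a sum and other exceptions were chosen after their values were seen. Alternatives were other pseudocounts, filters, scalings, variance settings and tools, a replicate block, thinned reads and each library left out.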

Additional observations from a re-analysis of the deposited data

How the results depend on the processing

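Each of the 8 genes kept its direction under all 19 alternatives, and the call was kept in 136 of 152 cases. Without a variance trend 2 members fell (Tnnc1 and Tnni1) and 0 rose, where 7 fell and 1 rose in the reported fit. With reads thinned to the shallowest library in a single draw 2 fell (Tnnc1 and Tnnt2) and 0 rose. The rise of Tpm3 was also not called with TMM scaling (0 members rose), in DESeq2 (0) or without control replicate 1 (0). With a library left out 6 to 7 members fell and 0 to 1 rose. The difference in log2 ratio of Tnni1 to Tnni3 ran from -0.82 to -0.65 with a library left out and was -0.997 after thinning. With a library left out the change in share was -5.81 to -4.78 percentage points for Tpm1, -2.50 to -1.37 for Tpm2, 6.24 to 7.15 for Tpm3 and -0.0925 (without Crat hairpin replicate 2) to 1.16 for Tpm4. Thinning gave -0.99 for Tpm2, 7.18 for Tpm3 and -0.39 for Tpm4, whose sign is thus not settled. Deviations of same-numbered replicates showed almost no correlation (0.0235 over 4325 genes). Counting error in the shallow Crat hairpin replicate 1 can hide a pairing, so this value does not settle whether the numbers pair the libraries. With a replicate block 7 members fell and 1 rose, and 2596 genes changed. Over all genes 2454 changed, against 345 without a trend, 118 after thinning, 1611 in DESeq2, 3767 in edgeR and 4088 with voom weights. With control replicate 1, control replicate 2, Crat hairpin replicate 1 or Crat hairpin replicate 2 left out, 601, 1271, 3882 and 6252 changed; the lone library is then assumed to vary like the other group. The causes were not tested. Division by coding length was not run, since no protein lengths were at hand. Crat hairpin replicate 1, at 321516 reads, limits every value.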

Other observations

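Likeness of pattern was measured as the Euclidean distance between log2(RPM + 1) values, each centred on its mean over the 4 libraries, among 4113 named genes outside the members with a mean of at least 50 RPM. Nearest to Tnnt2 were ND1, a complex I subunit encoded by the mitochondrial genome (distance 0.0133), Myl9 (0.0686) and LOC100360117 (0.0703). ND1 stood at 4339.6 and 4206 RPM in the controls and at 1866 and 1803 with the Crat hairpin. Nearest to Tpm1 were Skp1, a subunit of ubiquitin ligases (0.0339), Ankrd1, a stretch-responsive protein of heart muscle (0.0655), and Nmt1, which adds myristate to proteins (0.0687). Ankrd1 was at 2870.3 and 2676 RPM in the controls and at 1521 and 1505 with the hairpin. Among the members themselves Tpm1 and Tpm2 lay closest (0.0695), then Tnni3 and Tpm4 (0.0929), and Tpm3 lay at least 1.15 from every other member. With 4 libraries in 2 groups such distances mostly reflect the size of the change.

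The neighbours of troponin genes were read from RefSeq. In assembly GRCr8, Tnni3 and Tnnt1 are neighbours with no protein-coding gene between them, and Tnni1 and Tnnt2 have 1 such gene, Lad1, between them; Tnni2 and Tnnt3 have 5. Tnnt1 had 10, 0, 0 and 1 reads in the 4 libraries where Tnni3 had 9094, 484, 70 and 397, and Lad1 had 20, 0, 0 and 0. The linked Tnni1 and Tnnt2 both fell, with log2 fold changes of -1.43 and -1.21. As 7 of the 8 members fell, most pairs of members would do so, and the part of position was not tested.

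A second pair of fetal and adult forms, the myosin heavy chains Myh7 and Myh6, was read the same way. Myh7 reads per 100 Myh6 reads were 13.1 and 12.6 in the controls and 10.01 and 9.78 with the Crat hairpin, a log2 difference of -0.38 (exact permutation p = 0.333). In rodents Myh7 is the form of the fetal ventricle, so this ratio and that of Tnni1 to Tnni3 were both lower with the hairpin. The counting intervals of Crat hairpin replicate 1 (7.99 to 12.4) and control replicate 2 (11.9 to 13.3) overlapped. No ratio was computed for the myosin light chains. The mean of Myl3 went from 1417 RPM in the controls to 513 with the hairpin, and that of Myl4 from 196 to 191. Myl2 went from 1218 to 847 RPM, and Myl7 from 220 to 193. Log2 fold changes were -1.46 for Myl3 against -0.04 for Myl4, and -0.52 for Myl2 against -0.19 for Myl7. If Myl4 and Myl7 are taken as the fetal forms, these pairs moved opposite to the Tnni1 and Myh7 pairs. The lower ratios thus hold for the Tnni1 and Myh7 pairs only, and a general shift between fetal and adult forms was not tested.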
